A study of Mus musculus with 6 samples.

Results

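Specific and gelatinase granule genes encode proteins that neutrophils store for release, and 10 of them were described here: Ltf, Camp, Ngp, Lcn2, Mmp8, Mmp9, S100a8, S100a9, Retnlg and Cd177. They were chosen by symbol from a deposited table of 55487 genes in 6 RNA-seq libraries, and each matched 1 gene. S100a8 and S100a9 are cytosolic proteins and Cd177 is a membrane protein, so the set holds products of maturing neutrophils more broadly than granule contents. The libraries were made from total RNA of mouse bone marrow cells positive for cKit, which had been transduced with a lentivirus overexpressing wild type MLLT3 (WT, n = 3) or MLLT3 carrying both K63E and K67E (DM, n = 3). After sorting, both groups were grown for 8 days in methylcellulose with mFlt3L at 10 ng/mL, with mSCF, hTPO and hEPO, and with the further cytokines mGMCSF, mIL-11, mIL-6 and mIL-3, these 7 at 20 ng/mL, and with gentamycin at 50 µg/mL. Both groups also received 4-hydroxytamoxifen at 200 nM, which the labels give as the trigger for deleting the endogenous Mllt3 gene. The strain and age of the mice, the recombinase that 4-hydroxytamoxifen activates and whether replicates came from separate animals are not given in the sources used here, so p-values measure only the spread between these samples.

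In neutrophil development, granules form in an order. Azurophil granules, with Mpo and Elane products, are filled first, specific granules with lactoferrin and cathelicidin follow, and gelatinase granules with Mmp9 product are made last. The transcription factor encoded by Cebpe is required for specific granules, and mice or people without it make neutrophils that lack their contents. Levels are given as rlog (regularized logarithm) values in log2 units. These are shrunk most where a gene is low, and they hold no counts, so the depth of the libraries is unknown. A change is the mean of DM minus the mean of WT, and a gene was called where the limma p-value, adjusted by the Benjamini-Hochberg method over 18766 genes (those averaging 3 or more), was under 0.05. All 10 genes passed this minimum, since their means ran from 7.24 to 16.45. In bulk RNA, fewer cells of a type and less RNA per cell cannot be told apart.

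Of the 10 genes, 7 fell in DM: Camp, Ngp, Cd177, Ltf, S100a9, S100a8 and Retnlg. Over all genes tested, 4.71% were called lower and 13.9% in either direction. The calls over all genes split into 884 lower and 1727 higher, and after quantile normalization into 1292 lower and 1362 higher, with 7 of the 10 genes lower in both cases. The falls ran from 0.77 to 1.66 on the log2 scale, and 6 of the 7 reached 1, as did 0.368% of all genes tested. Lcn2 and Mmp9 also had lower means in DM, which makes 9 of 10 (48.4% of all genes), and Mmp8 had a higher mean, but none of these 3 passed the test. No gene of the set was called higher by limma, against 9.2% of all genes, although 1 of them, Mmp8, had an unadjusted p under 0.05. The median change of the 10 genes was -1.13, beside 0.01 over all genes tested. Every DM library lay below every WT library for the 7 genes that fell, a pattern found for 14.3% of all genes, and with Mmp8 in the other direction 8 genes had groups that did not overlap (35.8% of all genes). Without the minimum mean of 3, only 138 of 55487 genes were called and none of the 10 was among them, and the cause was not tested.

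**Figure D1:**
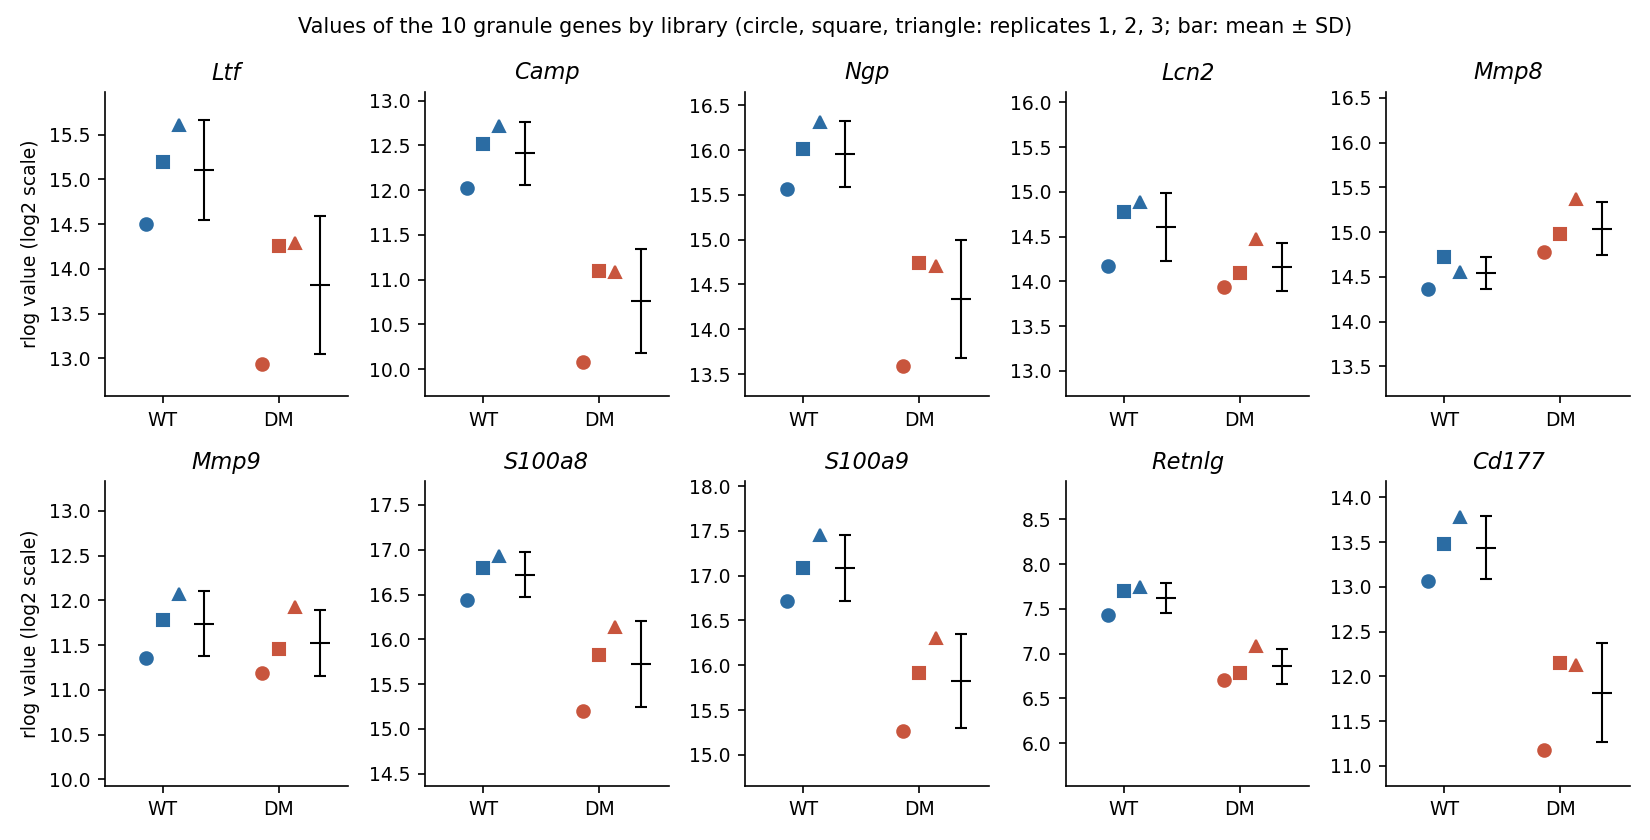
Each panel plots the rlog value (log2 scale) of 1 gene in the 3 WT libraries (blue) and the 3 DM libraries (red), with the marker shape giving the replicate and the black bar the mean ± SD. All panels span the same height, so the falls of Camp, Ngp and Cd177 (1.66, 1.62 and 1.62) can be compared by eye with the overlapping groups of Lcn2 and Mmp9, and replicate 1 is the lowest point of its group in every panel.

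Camp, Ngp and Ltf encode antimicrobial proteins of specific granules and lie on chromosome 9. Camp (ENSMUSG00000038357.10; chromosome 9, 109847379 to 109849617, minus strand in GENCODE M21 on GRCm38) encodes the cathelicidin antimicrobial peptide. In replicates 1, 2 and 3, its rlog values were 12.02, 12.51 and 12.71 for WT and 10.08, 11.1 and 11.08 for DM. The lowest WT value exceeded the highest DM value by 0.92. Camp averaged 12.41 ± 0.354 (SD, n = 3) under WT against 10.76 ± 0.583 (SD, n = 3) under DM, and the change of -1.66 (SE 0.259, limma adjusted p 0.00514) put Camp at place 17 among the falls of all genes tested.

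Ngp (ENSMUSG00000032484.8; chromosome 9, 110419747 to 110423012, plus strand) encodes neutrophilic granule protein, a relative of cathelicidins and cystatins. Ngp had rlog values of 15.57, 16.01 and 16.31 in WT and of 13.59, 14.74 and 14.71 in DM. DM replicate 1 was the lowest library by more than 1 on the log2 scale, and the groups did not overlap. The change was -1.62 (SE 0.289, limma adjusted p 0.00787), from a mean of 15.96 ± 0.37 (SD, n = 3) to 14.34 ± 0.657 (SD, n = 3), which is place 19 among all falls.

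Ltf (ENSMUSG00000032496.7; chromosome 9, 111019271 to 111042767, plus strand) encodes lactoferrin, the iron-binding protein of specific granules. In WT the rlog values of Ltf were 14.5, 15.19 and 15.61, and in DM they were 12.94, 14.25 and 14.29. The spread within each group was the widest of the set, with SDs of 0.559 and 0.767, and the gap between the lowest WT and the highest DM library was 0.22. Ltf changed by -1.28 (SE 0.357, limma adjusted p 0.0419). The call was lost without WT replicate 2 (-1.23, adjusted p 0.0738), WT replicate 3 (-1.02, 0.105), DM replicate 1 (-0.83, 0.0681), DM replicate 2 (-1.49, 0.0511) or DM replicate 3 (-1.51, 0.0506). It was also lost without a mean-variance trend (limma adjusted p 0.0575) and after centring on the library median (0.0502), within a range of 0.000345 to 0.423 over all 13 alternatives.

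Lcn2 (ENSMUSG00000026822.14; chromosome 2, 32384633 to 32388252, minus strand) encodes lipocalin 2, which binds bacterial siderophores and is also made by macrophages. Its rlog values were 14.17, 14.77 and 14.89 in WT and 13.94, 14.09 and 14.47 in DM. The groups overlapped, since DM replicate 3 lay above WT replicate 1. The change was -0.45 (SE 0.188, limma adjusted p 0.15). Without WT replicate 1 it was -0.66 and passed the threshold (limma adjusted p 0.0371, with a range of 0.0072 to 0.538 over the 13 alternatives).

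The bases before the start of a gene are where factors such as C/EBP and PU.1 proteins can bind, so the sequences of 4 genes are shown, 3 that fell and Mmp8, which had the higher mean. They are RefSeq sequences on GRCm38.p6, printed 5′ to 3′ on the strand of the gene, and capitals mark matches to TTNNGNAA, a degenerate form of the C/EBP motif searched on both strands. The stretches are chr9:111019042-111019270 (plus strand), chr9:110419558-110419746 (plus), chr7:24760312-24760561 (minus) and chr9:7558179-7558428 (plus). Each ends at the RefSeq start or, for Ltf and Ngp, at the start in GENCODE, which lies further upstream.
Ltf: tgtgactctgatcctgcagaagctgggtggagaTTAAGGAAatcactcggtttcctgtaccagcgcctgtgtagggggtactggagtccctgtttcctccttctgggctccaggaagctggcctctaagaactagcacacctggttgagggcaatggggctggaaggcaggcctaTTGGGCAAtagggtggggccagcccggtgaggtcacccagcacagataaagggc
Ngp: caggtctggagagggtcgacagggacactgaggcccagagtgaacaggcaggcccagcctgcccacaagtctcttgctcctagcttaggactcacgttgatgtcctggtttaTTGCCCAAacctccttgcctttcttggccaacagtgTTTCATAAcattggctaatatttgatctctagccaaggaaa
Cd177: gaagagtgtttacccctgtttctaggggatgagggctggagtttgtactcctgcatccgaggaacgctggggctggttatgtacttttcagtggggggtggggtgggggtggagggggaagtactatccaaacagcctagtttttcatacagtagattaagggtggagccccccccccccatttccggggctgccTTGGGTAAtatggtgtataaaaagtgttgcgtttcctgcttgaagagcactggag
Mmp8: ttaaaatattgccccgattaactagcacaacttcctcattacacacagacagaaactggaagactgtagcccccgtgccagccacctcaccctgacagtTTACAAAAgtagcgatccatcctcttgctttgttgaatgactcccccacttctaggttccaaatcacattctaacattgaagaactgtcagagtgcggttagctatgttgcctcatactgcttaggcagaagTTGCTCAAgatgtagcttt
In the 250 bases before the RefSeq start, 8 of the 9 genes of the set with an entry held TTNNGNAA, as did 36.8% of all 32851 promoters in the table. Mmp8, with matches from -151 to -144 and from -19 to -12 counted from the start, held it as well as Ltf, with matches from -217 to -210 and from -75 to -68. Camp was the gene without a match. The core PU.1 motif GAGGAA was in 5 of the 9 and in 23.3% of all promoters, and TATAAA was in 2 of the 9 (Cd177 and S100a8) and in 12.4%. The 2 genes with TATAAA both fell, as did most of the set (7 of 10). These matches describe letters only, and neither binding nor chromatin was measured here. Mmp9 was not among the entries.

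Neither metalloprotease gene of the set passed the test. Mmp8 (ENSMUSG00000005800.3; chromosome 9, 7558456 to 7568485, plus strand) encodes neutrophil collagenase, a metalloprotease of specific granules. Mmp8 had rlog values of 14.36, 14.72 and 14.55 in WT and of 14.78, 14.98 and 15.37 in DM. All DM libraries lay above all WT libraries, a pattern in the upward direction found for 21.5% of all genes tested. The change was 0.5 (SE 0.149, limma adjusted p 0.0521), and it passed the threshold when WT replicate 2 was left out (0.59, adjusted p 0.0347), when DM replicate 1 was (0.63, 0.0261) and with a minimum mean of 5 (0.5, 0.0332), within a range of 0.00916 to 0.389 over the 13 alternatives. Mmp8 averaged 14.54 ± 0.18 (SD, n = 3) under WT and 15.04 ± 0.298 (SD, n = 3) under DM.

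Mmp9 (ENSMUSG00000017737.2; chromosome 2, 164940780 to 164955850, plus strand) encodes gelatinase B, the enzyme that gives gelatinase granules their name and that macrophages also secrete. The rlog values of Mmp9 were 11.36, 11.78 and 12.07 in WT and 11.19, 11.46 and 11.92 in DM, and the groups overlapped over most of their range. The change was -0.21 (SE 0.2, limma adjusted p 0.498). Between the 2 proteases, the Mmp8 value minus the Mmp9 value was 3, 2.94 and 2.48 in WT and 3.6, 3.52 and 3.45 in DM. This difference was larger in all 3 DM libraries, by 0.72 on average (two-sided exact permutation p 0.1, which is the lowest p possible with 3 libraries a group, and 0.117 after Benjamini-Hochberg adjustment over 7 gene pairs).

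S100a8 and S100a9 encode the subunits of calprotectin, a calcium-binding and zinc-binding dimer that fills the neutrophil cytosol and is also found in monocytes. S100a8 (ENSMUSG00000056054.9; chromosome 3, 90668978 to 90670035, plus strand) had rlog values of 16.44, 16.8 and 16.93 in the WT libraries and of 15.2, 15.82 and 16.14 in the DM libraries. S100a9 (ENSMUSG00000056071.12; chromosome 3, 90692632 to 90695721, minus strand) had 16.72, 17.09 and 17.45 in WT against 15.26, 15.91 and 16.3 in DM. In both genes the groups were apart, by 0.3 for S100a8 and 0.42 for S100a9. S100a8 changed by -1 (SE 0.219, limma adjusted p 0.0156), from 16.72 ± 0.252 to 15.72 ± 0.48 (SD, n = 3 each). The change of S100a9 was -1.27 (SE 0.254, limma adjusted p 0.0114), from 17.09 ± 0.368 to 15.82 ± 0.526 (SD, n = 3 each).

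S100a8 minus S100a9 was -0.27, -0.29 and -0.53 in WT and -0.06, -0.09 and -0.15 in DM, so the 2 values lay closer together in every DM library. The difference of the changes was 0.26 (two-sided exact permutation p 0.1, adjusted 0.117). As 0.1 is the lowest p this test can give here, no pair could pass the threshold. The genes together span 26.7 kb of chromosome 3, both included, with no other tested gene between them. Within 500 kb of S100a8, 22 other tested genes had a position in GENCODE M21, and 4 of these rose. They were S100a4 (0.74, limma adjusted p 0.00352) and, chosen for naming once their values were known, Slc39a1 (0.53, 0.00601), S100a1 (0.87, 0.0179) and Snapin (0.29, 0.0436). S100a1 was not called without WT replicate 1 (0.88, limma adjusted p 0.0516) or DM replicate 2 (0.7, 0.0635), and Snapin was not when any library other than WT replicate 2 was left out (0.24 to 0.29, limma adjusted p from 0.0975 to 0.161).

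Cd177 (ENSMUSG00000052212.6; chromosome 7, 24743983 to 24760311, minus strand) encodes a glycoprotein of the neutrophil membrane and of specific granule membranes. Its rlog values were 13.07, 13.48 and 13.78 in WT and 11.18, 12.15 and 12.13 in DM, with a gap of 0.92 between the groups. It changed by -1.62 (SE 0.252, limma adjusted p 0.00494), place 18 among all falls. Cd177 averaged 13.44 ± 0.357 (SD, n = 3) under WT and 11.82 ± 0.556 (SD, n = 3) under DM.

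Retnlg (ENSMUSG00000022651.6; chromosome 16, 48872621 to 48874496, plus strand) encodes resistin-like gamma, a secreted protein of mature mouse neutrophils. The rlog values were 7.43, 7.7 and 7.74 in WT and 6.71, 6.78 and 7.08 in DM, which makes it the lowest gene of the set in every library. The groups did not overlap, and the spread within them was the smallest of the 7 genes that fell. The change was -0.77 (SE 0.114, limma adjusted p 0.00418). Retnlg minus Cd177 differed between the groups by 0.86 (two-sided exact permutation p 0.1, adjusted 0.117), so the mean fall of Retnlg was the smaller, on a scale that shrinks genes with low values more. Of its family, Retnla, a gene of alternatively activated macrophages, had means of 3.43 in WT and 3.29 in DM (limma adjusted p 0.0829).

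**Figure D2:**
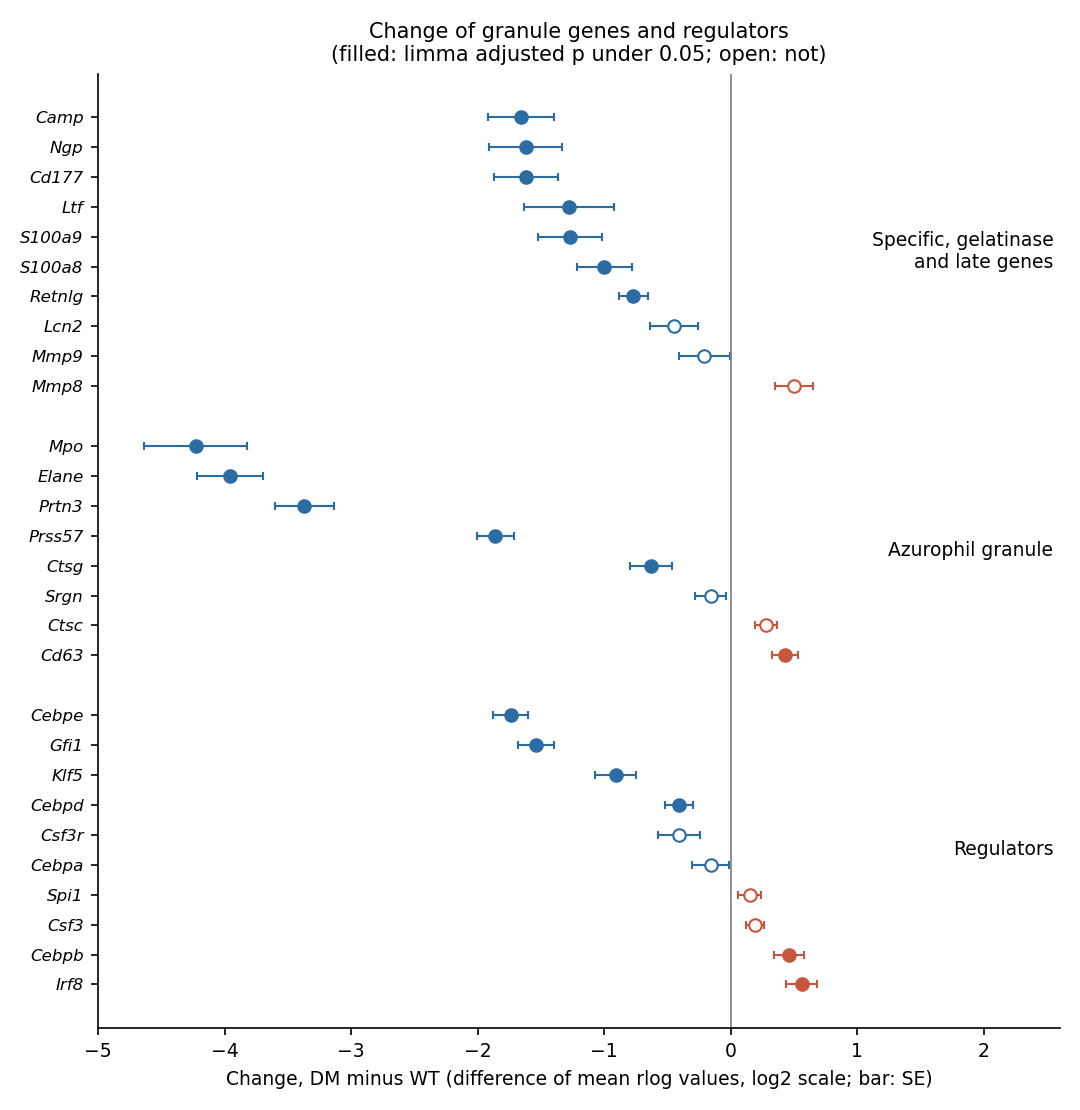
Each point is the change of 1 gene, DM minus WT, on the log2 scale with its SE, and filled points passed limma at an adjusted p under 0.05. The 10 described genes run from -1.66 (Camp) to 0.5 (Mmp8), the azurophil granule genes from -4.23 (Mpo) to 0.43 (Cd63) and the regulators from -1.74 (Cebpe) to 0.56 (Irf8).

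Camp, Ngp and Cd177 had nearly the same pattern over the 6 libraries, although Cd177 lies on another chromosome. With each gene centred on its own mean, the tested gene nearest to Camp by Euclidean distance was Cd177 (0.0962 over 6 libraries), and Camp was in turn the nearest to Cd177 and to Ngp (0.132). Camp minus Ngp was -3.55, -3.5 and -3.6 in WT and -3.5, -3.63 and -3.63 in DM. The changes of this pair differed by -0.04 (two-sided exact permutation p 0.6), with the libraries of both groups inside a span that is narrow beside their falls, and after quantile normalization the difference was 0.08. A gene outside the set, Itgb2l, which encodes a beta-2-like integrin chain of neutrophils, was the third nearest to all 3 of them, at distances of 0.189 to Camp, 0.277 to Ngp and 0.195 to Cd177. Itgb2l changed by -1.69 (SE 0.229, limma adjusted p 0.00281), from 10.9, 11.28 and 11.46 in the WT libraries to 8.92, 9.75 and 9.9 in the DM libraries.

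The other genes had different nearest neighbours. Ltf was nearest to Stfa2 (distance 0.474), S100a9 to Stfa2l1 (0.212) and Retnlg to Cstdc6 (0.122), which belong to families of near-identical copies, so that their values are uncertain. S100a8 was nearest to Padi4 (0.185), the enzyme that citrullinates histones in neutrophils. The neighbours of Lcn2, Mmp9 and Mmp8 were Tagap (0.241), Nt5e (0.202) and Ifi203 (0.199). All these distances are over the same 6 libraries and include the difference between the groups.

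**Figure D3:**
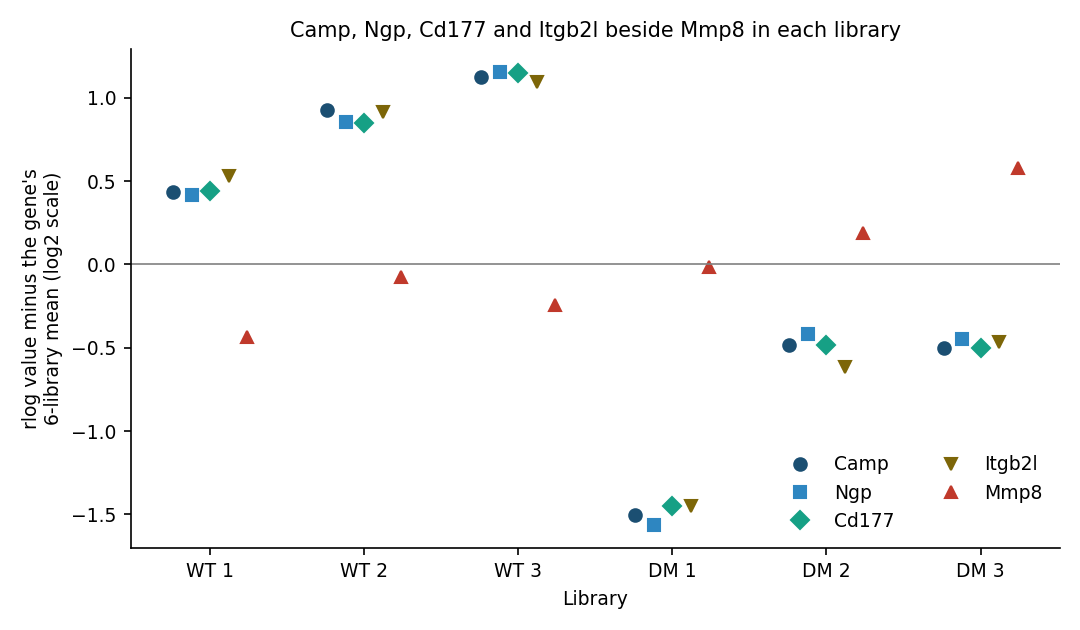
Points give the rlog value of 5 genes minus the 6-library mean of each gene (log2 scale) in the 6 libraries. Camp, Ngp, Cd177 and Itgb2l lie almost on top of each other, highest in WT replicate 3 and lowest in DM replicate 1, while Mmp8 is highest in DM replicate 3 and lowest in WT replicate 1.

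Camp, Ngp and Ltf share a stretch of 1195.4 kb on chromosome 9 (109847379 to 111042767), which held 28 other tested genes with a position in GENCODE M21. Of these, 1 fell and 3 rose, and their median change was -0.02. The gene that fell was Cdc25a, which encodes a cell cycle phosphatase and is the first tested gene after Camp (-0.65, limma adjusted p 0.00128), and those that rose were Map4 (0.34, limma adjusted p 0.0275), Mir6236 (0.37, 0.0347) and Ptpn23 (0.28, 0.0307). These 4 were picked for naming once their values were known. The calls of Map4 and Ptpn23 were lost without WT replicate 1, WT replicate 3, DM replicate 2 or DM replicate 3, that of Ptpn23 also without DM replicate 1, and that of Mir6236 without WT replicate 1, DM replicate 1 or DM replicate 2, after quantile normalization (0.19, 0.191) and after centring on the library median (0.34, 0.0513) (adjusted p over all alternatives up to 0.216, 0.276 and 0.251). Ngp, with its fall of 1.62 on the log2 scale, lies between Ptpn23 and Klhl18 (-0.06, limma adjusted p 0.571). In the 200 kb on either side of Mmp8, 4 other genes were tested and 1 of them rose, Mmp12, the macrophage elastase (0.81, limma adjusted p 0.0245). Mmp12 was not called after quantile normalization (0.55, limma adjusted p 0.0995), nor without WT replicate 1 (0.79, 0.0773) or DM replicates 1, 2 or 3 in turn (0.82, 0.79 and 0.83, with adjusted p of 0.0501, 0.0778 and 0.0694).

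**Figure D4:**
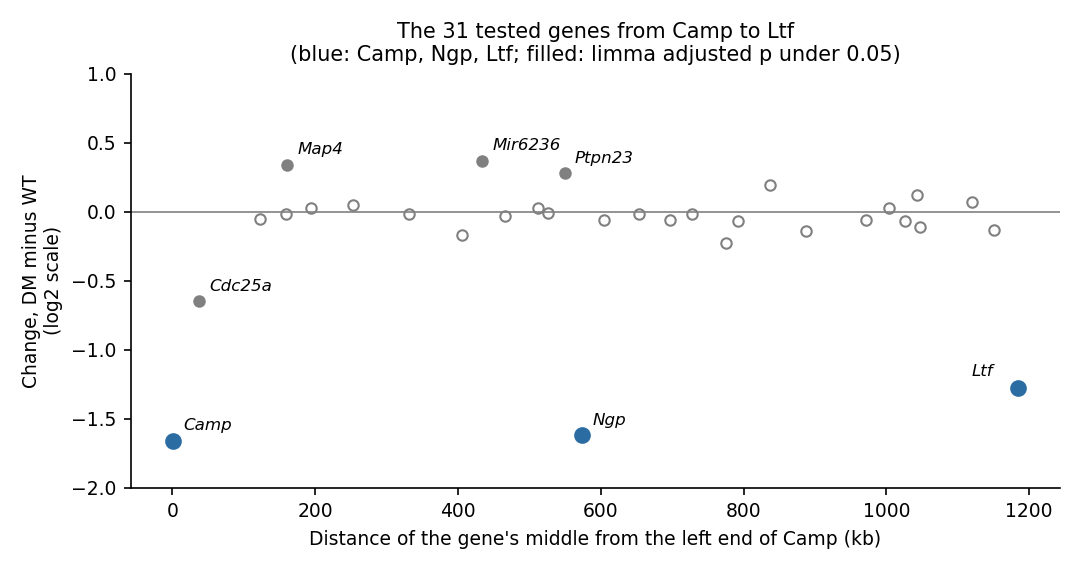
Each point is 1 of the 31 tested genes from Camp to Ltf, placed by its distance from the left end of Camp (kb) and by its change, DM minus WT (log2 scale). Camp, Ngp and Ltf (blue) lie at -1.66, -1.62 and -1.28, and the other 28 genes run from Cdc25a at -0.65 to Mir6236 at 0.37.

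Among libraries, replicate 1 was the lowest of its group for all 10 genes in WT and for all 10 in DM. Averaged over the 10 genes, WT replicates 1 to 3 lay 0.11, 0.55 and 0.75 above the 6-library mean, and DM replicates 1 to 3 lay at -0.97, -0.33 and -0.11. WT replicate 3 was the highest of the 6 libraries for 9 genes, and DM replicate 1 the lowest for 9, with Mmp8 the exception in both counts. The genes varied more than most: their median SD was 0.359 in WT and 0.503 in DM, beside 0.0989 and 0.0727 over all genes with a mean of at least 9. Without replicate 1 of both groups, an alternative chosen after seeing the data, 7 of the 10 genes were called lower and their median change was -1.01. In that setting, 423 of all 18766 genes tested were called lower, and the median change over all of them was 0.01.

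Taken back to the linear scale, the 10 genes made up between 0.987% and 1.63% of the sum over all genes in WT and between 0.404% and 0.779% in DM. Within that sum, S100a8 and S100a9 together held 58.6% to 60.8% in WT and 52.4% to 55.6% in DM. Mmp8 held 4.67% to 6.49% in WT and 14.4% to 19.2% in DM, and Ngp held 15% to 15.7% in WT and 8.38% to 12.1% in DM. These shares do not correct for gene length. On the rlog scale less the log2 of the exon length in kb, the order of the levels in WT was S100a9 (18.02), S100a8 (17.25), Ngp (15.67), Ltf (13.31), Mmp8 (13.27), Lcn2 (13.22), Camp (12.81), Cd177 (11.94), Mmp9 (9.91) and Retnlg (8.38). The levels of Ltf, Mmp8 and Lcn2 differed by less than the SD of any of them, and their order in WT is not resolved. In DM, the mean of Mmp8 at 13.77 lay below that of Ngp at 14.05 and above Lcn2 at 12.77 and Ltf at 12.04, and the other 7 genes had the same places as in WT. In DM, Ngp and Mmp8 were closer to each other than either of their SDs, so their order is not resolved. S100a9 (16.76) and S100a8 (16.25), and likewise Lcn2 and Ltf, were closer than the larger of their SDs. These SDs include shifts between libraries that both genes of a pair share. Within every DM library, corrected for length, S100a9 lay above S100a8 and Lcn2 above Ltf, and these orders were not tested.

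Of 8 genes of the azurophil granules, which form before specific granules, 5 fell and Cd63 rose (0.43, limma adjusted p 0.0222; picked once its value was known), with a median change of -1.25. Cd63 was not called after quantile normalization (0.27, limma adjusted p 0.082), nor without WT replicate 1 (0.46, 0.0632), WT replicate 3 (0.4, 0.0591), DM replicate 1 (0.36, 0.0772) or DM replicate 2 (0.39, 0.0918). The falls were led by Mpo (-4.23), Elane (-3.96), Prtn3 (-3.37) and Prss57 (-1.86), with limma adjusted p values from 0.000118 to 0.000444. Ltf minus Elane was 0.85, 1.72 and 2.93 in WT and 3.34, 5.46 and 4.73 in DM, a difference between the groups of 2.68. For Camp minus Elane the difference was 2.3, and in both pairs the groups did not overlap (two-sided exact permutation p 0.1, adjusted 0.117). Mpo was highest in WT replicate 1 (15.3) and lowest of the WT libraries in replicate 3 (14.09), the opposite of Camp, Ngp and Ltf in those libraries.

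**Figure D5:**
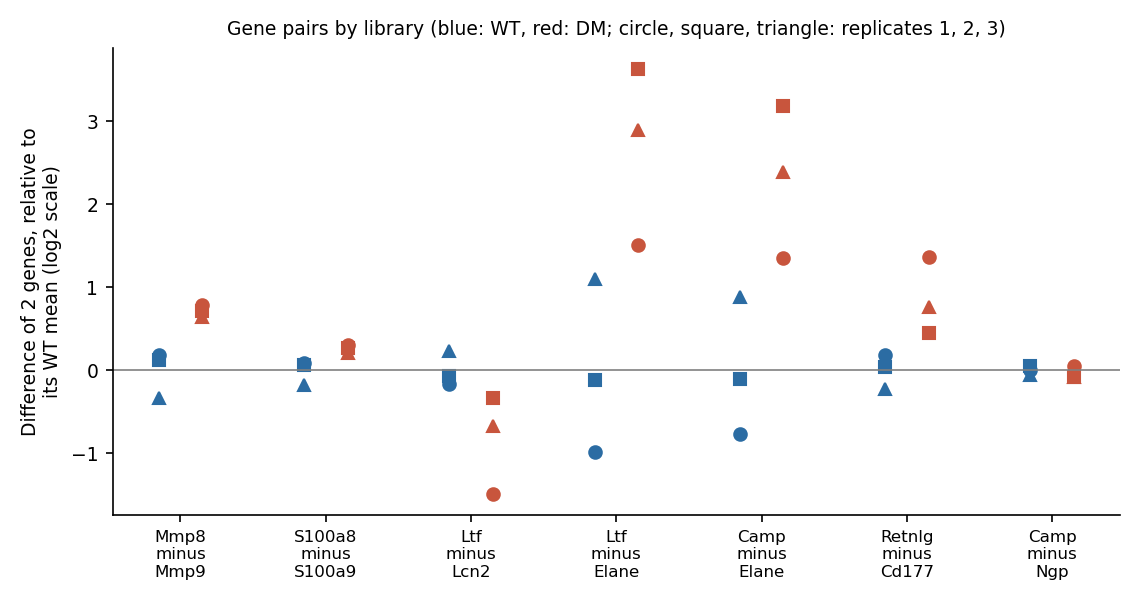
For 7 gene pairs, points give the difference of the 2 genes in each library relative to the WT mean of that difference (log2 scale), with WT in blue, DM in red and the marker shape giving the replicate. The DM libraries lie apart from the WT libraries in 6 pairs, by 2.68 on average for Ltf minus Elane, and mix with them for Camp minus Ngp.

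Among 10 regulators of late granule genes, 4 fell and 2 rose, with a median change of -0.28. Cebpe, the factor required for specific granules, had rlog values of 10.47, 10.64 and 10.6 in WT, compared with 8.51, 8.8 and 9.17 in DM. It changed by -1.74 (SE 0.139, limma adjusted p 0.000157), and its groups did not overlap. Gfi1, a repressor needed for neutrophil development, changed by -1.54 (limma adjusted p 0.000306) and Klf5 by -0.91 (0.00768). Irf8, which favours monocytes over neutrophils, rose by 0.56 (limma adjusted p 0.016), but not without WT replicate 1 (0.5, adjusted p 0.0627), DM replicate 2 (0.51, 0.0632) or DM replicate 3 (0.54, 0.0608). Csf3r, the receptor for G-CSF, had means of 11.23 in WT and 10.82 in DM (limma adjusted p 0.131). The other riser was Cebpb (0.46, limma adjusted p 0.0309), a relative of Cebpe, and without WT replicate 1, DM replicate 2 or DM replicate 3 neither riser was called. Cebpb was also not called without WT replicate 3 (0.45, limma adjusted p 0.0627) or after quantile normalization (0.31, 0.0912).

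Other genes listed with neutrophil granules, many of them shared with macrophages, moved in both directions. Of 20 tested, 10 rose and 4 fell, and the median change was 0.36. Pglyrp1, a peptidoglycan-binding protein of neutrophil granules, fell most (-1.42, limma adjusted p 0.00263). Padi4 followed (-0.88, limma adjusted p 0.0169), although its product is the histone-citrullinating enzyme named above and not a granule content. Haptoglobin (Hp, -0.8, limma adjusted p 0.0143) and Mmp25 (-0.54, 0.0145) came next, 2 genes picked for naming once their values were known. Without DM replicate 2, Hp was not called (-0.72, limma adjusted p 0.0554). Slc11a1, the metal transporter of phagosomes, rose by 0.96 (limma adjusted p 0.00271). Fpr2, a receptor for the cathelicidin peptide that was likewise picked, rose by 0.59 (limma adjusted p 0.0094). Lyz2 rose by 0.86 (limma adjusted p 0.0176), but not without WT replicate 1 (0.81, 0.0704), WT replicate 3 (0.71, 0.0966) or DM replicate 2 (0.73, 0.0656). Leaving out WT replicate 1 reduced the number that rose to 2, leaving out DM replicate 2 to 3 and leaving out DM replicate 3 to 5, and it was 6 after quantile normalization. It was 5 without both replicates 1.

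Partners and inhibitors of the encoded proteins were read from a list of 15, of which 5 rose and 1 fell. The gene that fell was Reck (-0.66, limma adjusted p 0.0014), a membrane inhibitor of metalloproteases. Cd36 rose most (1.13, limma adjusted p 0.016), but was not called without WT replicate 1 or DM replicate 2. Mmp14, a membrane metalloprotease, rose by 1.02 (limma adjusted p 0.00303) and Lrp1, an endocytic receptor that takes up lactoferrin, by 0.9 (0.00797). Timp1, the inhibitor that binds Mmp9 product, had means of 4.88 in WT and 4.94 in DM (limma adjusted p 0.606). Tlr4, a receptor for calprotectin, rose by 0.44 (limma adjusted p 0.0273), but not without WT replicate 1 (0.4, adjusted p 0.101), WT replicate 3 (0.35, 0.0619), DM replicate 2 (0.4, 0.101) or DM replicate 3 (0.42, 0.0957). The number that rose was 2 without WT replicate 1 or DM replicate 2 and 3 without WT replicate 3 or DM replicate 3. Of 10 tested paralogs, 5 rose, among them S100a4 (above), S100a10 (0.51, limma adjusted p 0.0106) and Mmp19 (0.78, 0.0112), and 3 rose without WT replicate 1, DM replicate 2 or DM replicate 3 and after quantile normalization.

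Markers of other cells and of neutrophil maturation were read beside these genes. Of 8 markers of maturing neutrophils, 5 fell and 1 rose. Ly6g, the surface marker of mature mouse neutrophils, changed by -0.97 (limma adjusted p 0.00996) and Il1r2 by -0.74 (0.00975). The riser was Itgam, with means of 12.96 in WT and 13.41 in DM (limma adjusted p 0.0295). It was not called after quantile normalization or without WT replicate 1, DM replicate 2 or DM replicate 3. The summed level of the 8 markers ran from 13.95 to 14.3 in WT and from 13.87 to 14.32 in DM. Itgam, the highest of the 8 in both groups, weighs most in this sum. Padi4, Mmp25 and Itgam also belong to the list of genes of neutrophil granules above. All 9 markers of monocytes and macrophages were tested, and 6 rose and 2 fell. Their summed level, on the log2 scale, ran from 16.75 to 17.47 in WT and from 17.78 to 18.04 in DM. Gpnmb, the highest of the 9 in both groups (means of 16.22 in WT and 17.17 in DM), weighs most in this sum. Ctss (0.96, limma adjusted p 0.0115) and Cd68 (0.94, 0.00777) rose, while Ly6c2, a marker of inflammatory monocytes, fell (-1.13, 0.00361). Of 6 eosinophil markers, the granule genes Epx (-1.46, limma adjusted p 0.000118), Prg3 (-1.29, 0.000118) and Prg2 (-1.16, 0.00381) fell, and their summed level was 14.97 to 15.09 in WT and 13.46 to 14.06 in DM. Of 7 mast cell and basophil markers, Mcpt1 rose (1.32, limma adjusted p 0.0491), but none was called higher without a trend, after quantile normalization or median centring, or without any 1 library other than DM replicate 3, and 2 were called lower without WT replicate 1. Of 5 megakaryocyte markers, Gp1ba (0.55, limma adjusted p 0.017) and Vwf (0.54, 0.00667) rose, and 1 of the 2 was called without DM replicate 2 or after quantile normalization. Of 5 stem and progenitor markers, Mecom rose (0.52, limma adjusted p 0.0189), though not without DM replicate 2, and Flt3 fell (-0.3, 0.0494), a call lost without WT replicate 1, WT replicate 3 or any 1 of the DM libraries, without a trend, and after quantile normalization or median centring. Of 2 lymphoid markers tested, Il7r rose (0.79, limma adjusted p 0.0094), and of 4 erythroid markers tested, limma called 0, with 0 at an unadjusted p under 0.05. The part of these cell types in the values of the 10 genes, some of which monocytes and macrophages also express, was not tested.

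Kit, the marker by which the cells of both groups were chosen, had means of 14.39 in WT and 14.6 in DM (limma adjusted p 0.368). As both groups share this marker, Kit does not test which libraries are WT or DM. Mllt3, which is both deleted and supplied here, changed by -0.48 (limma adjusted p 0.0448), with values from 12.44 to 12.87 in WT and from 11.99 to 12.44 in DM. This call was lost without a mean-variance trend (-0.48, 0.0542) and without WT replicate 1 (-0.36, adjusted p 0.152), WT replicate 2 (-0.5, 0.0606), DM replicate 2 (-0.42, 0.15) or DM replicate 3 (-0.4, 0.161), and the values do not separate the vector from the endogenous gene. The medians over all genes tested lay between 8.03 and 8.11 in the 6 libraries, and all were labelled batch 1.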

How the data were processed

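The deposited table held regularized log values on the log2 scale, 1 column per library, read as such from its name and its values. Per the submitters' processing notes, cutadapt 2.6, STAR 2.7.3, DESeq2 1.30.0 and the build mm10 were used, with no roles stated. The counting tool, the annotation and the use of strand are not given in the sources used here. Its 142699 lines were merged to 55487 genes, 54435 of which matched GENCODE M21 (GRCm38) by versioned identifier. No annotated gene overlaps any of the 10 genes.

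DM was compared with WT with limma 3.58.1 (trend on the mean) in R 4.3.3, without covariates, over 18766 genes averaging 3 or more, and tested on simulated data. Pairs of genes were compared by exact permutation. The genes and lists were chosen with earlier results of these data known. Named genes were the 10 genes, Mllt3, Kit, up to 4 called genes per list with the largest changes, list genes with a role tied to the 10, and nearest genes by Euclidean distance. The alternatives were other minimum means, no trend, quantile normalization, median centring, a replicate block and libraries left out. As the deposited values carry no depth, intervals for counting error could not be given.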

Additional observations from a re-analysis of the deposited data

How the results depend on the processing

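Direction was kept by all 10 genes in all 13 alternatives applied to each. Without the filter on the mean, 138 genes were called (124 lower, 14 higher) and 0 of the 10 genes, and the cause was not tested. With libraries left out singly, the calls ran from 1119 to 3475, those lower from 521 to 1152 and those higher from 598 to 2323. Of the 10 genes, 6 to 8 were then called lower and 0 to 1 higher. With both replicates numbered 1 left out, 884 genes were called, 423 lower and 461 higher. With a minimum mean of 5, 1 of the 10 genes (Mmp8) was called higher. The difference Camp minus Ngp was 0.08 after quantile normalization, against -0.04.

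The deviations of same-numbered libraries from their group means correlated at 0.491, 0.116 and 0.041 over the tested genes, all positive. Between libraries of different numbers, the correlations ran from -0.336 (WT replicate 1 with DM replicate 2) to 0.124 (WT replicate 3 with DM replicate 2). The replicate numbers were not taken as pairs, because WT replicate 3 correlated better with DM replicate 2 than with DM replicate 3. These values do not settle whether the libraries were paired. With the replicate block, 3742 genes were called, 1110 lower and 2632 higher. Of the 10 genes, 9 were then called lower, Lcn2 (limma adjusted p 0.0072) and Mmp9 (0.0316) among them, and 1 higher (Mmp8, 0.00916). Shrinkage limits what the values show of genes at low levels, such as Retnlg.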
